A study of Mus musculus with 29 samples.

Results

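The immunoglobulin kappa and lambda light chain segments were described in sorted mouse bone marrow pro-B cells with and without the transcription factor Pax5. Members were all entries of the expression tables whose name begins with Igk or Igl, ignoring case, apart from Igll1, a surrogate light chain gene, and Iglon5, a cell adhesion gene. The tables of wild-type and Pax5(-/-) cells, made on the mm9 genome, held 121 members among 24732 entries: 103 variable, 5 joining and 1 constant kappa segments, and 3 variable, 5 joining and 4 constant lambda segments. The tables of Pax5(+/+) Meox2-cre cells, made on mm10, held 178 members among 25588 entries, and the 57 added there were all variable kappa segments. The mm9 comparison used 3 wild-type and 2 Pax5(-/-) libraries of poly(A) RNA from freshly sorted C57BL/6 cells. The 3 Meox2-cre libraries were described apart. Per the study, Meox2-cre expresses Cre ubiquitously from the Meox2 locus. Their labels give pooled, sorted cells of the same strain with both Pax5 alleles intact. The study's text also names its control pro-B cells from 3-week-old mice Pax5(+/+). Its list of sequencing runs gives these 3 libraries as Pax5(+/-) instead, so the number of intact Pax5 alleles in them is uncertain.

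A light chain gene is assembled by joining 1 variable (V) segment to 1 joining (J) segment, after which splicing attaches the constant (C) segment. The RAG recombinase cuts at recombination signals beside each segment, made of a heptamer and a nonamer held apart by a spacer. Kappa and lambda light chain genes are normally assembled at the small pre-B stage, after the heavy chain, and pro-B cells carry the loci mainly in unrearranged form. Unrearranged segments can be transcribed as sterile germline transcripts, and short reads counted per segment do not tell these from transcripts of assembled genes.

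Expression was given as TPM, the transcript level obtained by dividing the reads of an entry by its length and scaling to the sum of the library. The members together took between 0.0124% and 0.0240% of the signal of each mm9 library. Recovered reads per member were few: 1 read in a joining segment of 38 bases was worth between 2.16 and 3.90 TPM. Relative to the first wild-type library, the depth of the other mm9 libraries was between 0.855 and 1.55 times, with the second Pax5(-/-) library the deepest. Transcripts of Pax5 itself ranged from 342 to 391 TPM in wild-type cells, against 43.0 and 39.1 TPM in the 2 Pax5(-/-) libraries (log2 fold change -3.17 ± 0.11 SE, adjusted p = 3.14e-06, limma). The sort also differed, since the study used another gate for the Pax5-deficient progenitors, which it took as Ly6D-positive cells, so genotype and gate cannot be told apart. Ly6d was at 190.0 to 270.5 TPM in the wild-type libraries, against 2258 and 3033 TPM in the Pax5(-/-) libraries. A lower value in these bulk samples can come from fewer cells carrying a transcript or from less of it per cell, which cannot be told apart.

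The ends of the variable kappa segments and the joining kappa segments are shown first, because the results turn on which of them gave reads. Each V line holds the last 20 bases of the V exon and the best signal match after it, with heptamer and nonamer in capitals. These are the segment highest in both genotypes (Igkv1-88), 3 segments that were higher in Pax5(-/-) cells (Igkv9-124, Igkv4-63, Igkv2-109) and 1 whose values were lower there (Igkv19-93). They lie at chr6:68812231-68812278 (minus strand), chr6:67892040-67892087 (minus), chr6:69327910-69327957 (minus), chr6:68253135-68253182 (plus) and chr6:68686263-68686310 (minus) of NCBIM37, the mm9 assembly.

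Igkv1-88: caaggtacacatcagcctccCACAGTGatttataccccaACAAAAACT
Igkv9-124: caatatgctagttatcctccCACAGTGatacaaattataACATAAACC
Igkv4-63: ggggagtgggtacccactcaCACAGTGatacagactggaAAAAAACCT
Igkv2-109: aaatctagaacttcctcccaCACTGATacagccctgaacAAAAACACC
Igkv19-93: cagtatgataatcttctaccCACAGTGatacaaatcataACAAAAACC

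The joining segments carry the mirrored signal with the longer spacer in front of the coding bases. Igkj1 (chr6:70672517-70672593, plus strand) and Igkj5 (chr6:70673841-70673921, plus strand) are shown with nonamer and heptamer in capitals, and Igkj3 (chr6:70673217-70673252, plus strand) as its coding bases alone.

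Igkj1: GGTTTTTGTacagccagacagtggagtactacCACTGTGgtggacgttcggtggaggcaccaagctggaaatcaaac
Igkj5: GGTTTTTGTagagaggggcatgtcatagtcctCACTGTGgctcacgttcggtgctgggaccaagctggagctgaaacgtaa
Igkj3: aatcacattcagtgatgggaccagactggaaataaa

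Signals were searched beside the 100 variable kappa entries with coordinates in GENCODE M1, within 16 bases after the V exon, as the heptamer CACAGTG, a spacer of 12 bases and the nonamer ACAAAAACC, starting in CAC and with at most 5 mismatches. A match was found for 94 of the 100, and 82 had the heptamer letters exactly. Among the 9 variable kappa segments that were higher in Pax5(-/-) cells, 9 had a match and 7 had the exact heptamer. For Igkv2-109 and Igkv2-116 the match found after the annotated V exon began with CACTGAT. A closer match starts within the last bases of that exon, where the search did not reach. It reads CACACTG, a spacer of 12 bases and ACAAAAACA. A match describes letters and says nothing about use of the signal.

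The balance of the classes was different in the 2 genotypes. As class sums, the joining and constant kappa signal was lower in both Pax5(-/-) libraries than in any wild-type library, and the variable kappa, constant lambda and joining lambda signal was higher, while single members of a class could differ from its sum. Summed variable kappa signal was 48.4, 30.2 and 33.5 TPM in the wild-type libraries and 101 and 111 TPM in the Pax5(-/-) libraries, with no overlap. Summed joining kappa signal was 42.5, 15.7 and 30.3 TPM in wild-type and 3.90 and 4.06 TPM in Pax5(-/-) libraries. Summed constant lambda signal was 9.22, 10.7 and 10.8 TPM in wild-type and 70.3 and 62.1 TPM in Pax5(-/-) libraries. Over the entire kappa locus the sums overlapped, at 201.1, 111 and 160.1 TPM in wild-type and 135 and 139 TPM in Pax5(-/-) libraries, while each kappa class taken alone did not overlap. These sums are descriptions without a test.

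**Figure D1:**
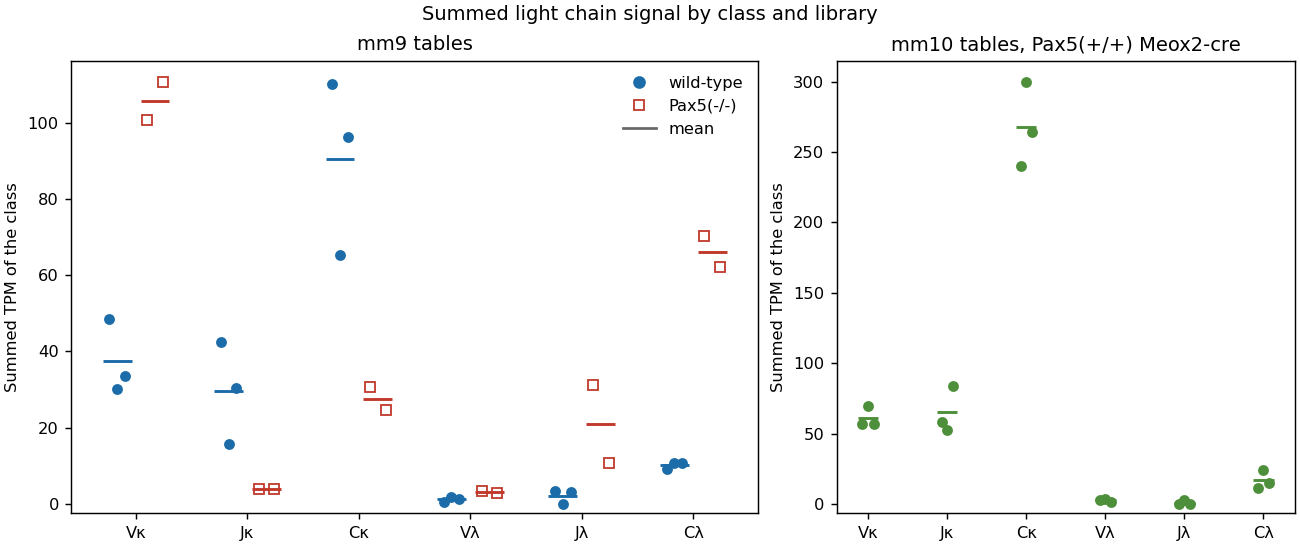
Summed TPM of each light chain class (Vκ, Jκ, Cκ, Vλ, Jλ, Cλ on the x axis) per library, with wild-type libraries as filled circles, Pax5(-/-) libraries as open squares and the 3 Meox2-cre libraries in a panel of their own, and short lines for means. Vκ and Cλ are above the wild-type libraries in both Pax5(-/-) libraries, and Jκ and Cκ are below them.

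Igkc, the only constant kappa segment and so part of each transcript of an assembled kappa gene, was the highest member of the wild-type libraries. It lies in 1 exon at chr6:70676429-70676751 (plus strand, mm9). Its level was 110.2, 65.4 and 96.2 TPM in the wild-type libraries, from 281, 170 and 254 recovered reads, and 30.7 and 24.6 TPM in the Pax5(-/-) libraries, from 67 and 97 reads. Both Pax5(-/-) values were below each wild-type value. Igkc fell in Pax5(-/-) cells, 3.27-fold by the means, with a log2 fold change of -1.67 ± 0.22 (SE) and an adjusted p of 0.00126 (limma over all genes tested).

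The joining kappa segments had the same direction in their means, but each rested on a handful of reads. Igkj5 was at 6.03, 5.91 and 8.74 TPM in wild-type libraries and was listed at 0 in both Pax5(-/-) libraries, and this was the joining kappa segment that passed the test (adjusted p = 6.29e-05, limma). Its 2, 2 and 3 reads in the wild-type libraries stand against no read in either Pax5(-/-) library, a count that still allows up to 3 reads per library. The p-value measures the spread between libraries and does not cover this counting error, here or for the other joining segments. Igkj1, the segment nearest to the V cluster, was at 29.99, 3.27 and 6.44 TPM in wild-type and 3.90 and 2.16 TPM in Pax5(-/-) libraries, which overlap. The first wild-type library gave 9 of its 12 wild-type reads, and without that library its log2 fold change was -0.58 instead of -1.44 (adjusted p = 0.182 with all libraries).

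Igkj2, Igkj3 and Igkj4 did not pass either. Igkj2 was at 2.94, 0 and 8.54 TPM in wild-type libraries and 0 and 1.91 TPM in Pax5(-/-) libraries. Igkj3, which is not used in functional mouse light chains, was at 3.52, 0 and 3.40 TPM in wild-type libraries and at 0 in both Pax5(-/-) libraries. Igkj4 was at 0, 6.54 and 3.22 TPM in wild-type libraries and also at 0 in both Pax5(-/-) libraries. The calls for these depend on 1 library: without the second wild-type library Igkj3 passed (adjusted p = 0.00167, limma), and without the first wild-type library Igkj4 did (adjusted p = 0.00122, limma). Over the class, the libraries held 13, 5 and 10 joining kappa reads in wild-type against 1 and 2 in Pax5(-/-) cells.

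Of the 4 constant lambda segments, Iglc1 and Iglc3 were higher in Pax5(-/-) cells and the other two did not pass or were at 0. In the mouse each C lambda segment has its own J lambda partner, so Iglc1 with Iglj1 and Iglc3 with Iglj3 form units. Iglc1 was at 3.63, 2.74 and 3.50 TPM in wild-type libraries, against 26.4 and 29.1 TPM in Pax5(-/-) libraries. It rose 8.44-fold by the means (log2 fold change 2.91 ± 0.19 SE, adjusted p = 5.25e-05, limma).

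Iglc3 was at 5.32, 5.22 and 6.23 TPM in wild-type libraries, against 43.9 and 33.0 TPM in Pax5(-/-) libraries. It rose 6.88-fold by the means (log2 fold change 2.67 ± 0.19 SE, adjusted p = 6.62e-05, limma), and for both segments the genotypes were far apart. Iglc2 was at 0.276, 2.71 and 1.07 TPM in wild-type libraries and was listed at 0 in both Pax5(-/-) libraries (adjusted p = 0.0523, limma; 0.00841 without the first wild-type library). Iglc4, a pseudogene in the mouse, was at 0 in the 5 libraries. Of the 50-base windows of the mm9 exons of Iglc2 and Iglc3, 79.9% and 91.1% occur once in the genome, and reads that fit several places were not counted. In mm9 Iglc3 lies at chr16:19065327-19067266 and Iglc2 at chr16:19198494-19200444, both on the minus strand.

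Their joining partners were higher too, on few reads. Iglj1 was at 3.33, 0 and 3.22 TPM in wild-type libraries and 15.6 and 8.63 TPM in Pax5(-/-) libraries (adjusted p = 0.0425, limma), from 1, 0 and 1 reads against 4 and 4. Its call was lost without either Pax5(-/-) library (adjusted p = 0.269 and 0.178), at a pseudocount of 0.1 (0.0948), with no filter (0.101), without the variance trend (0.0816) and with robust variances (0.121). Iglj3 was listed at 0 in the 3 wild-type libraries, against 15.6 and 2.16 TPM in the Pax5(-/-) libraries (adjusted p = 0.00464, limma), from 4 reads and 1 read. The second of these libraries thus held 1 read, and without the first the log2 fold change was 2.41 instead of 3.71. Iglj2, Iglj3p and Iglj4 were at 0 in the 5 libraries.

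Variable lambda segments stayed low in both genotypes. Iglv3 was at 0.665, 0.652 and 0.642 TPM in wild-type and 1.94 and 1.94 TPM in Pax5(-/-) libraries, and it passed the test (log2 fold change 1.08 ± 0.26 SE, adjusted p = 0.0142, limma), though not without either Pax5(-/-) library (0.0604 and 0.0615). Iglv1 was at 0, 1.27 and 0.626 TPM in wild-type and 1.52 and 1.05 TPM in Pax5(-/-) libraries, which overlap, and did not pass (adjusted p = 0.249, limma). Iglv2 was at 0 in the 5 libraries. Iglv3 lies at chr16:19241304-19241772 and Iglv1 at chr16:19085110-19085553 (minus strand, mm9).

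**Figure D2:**
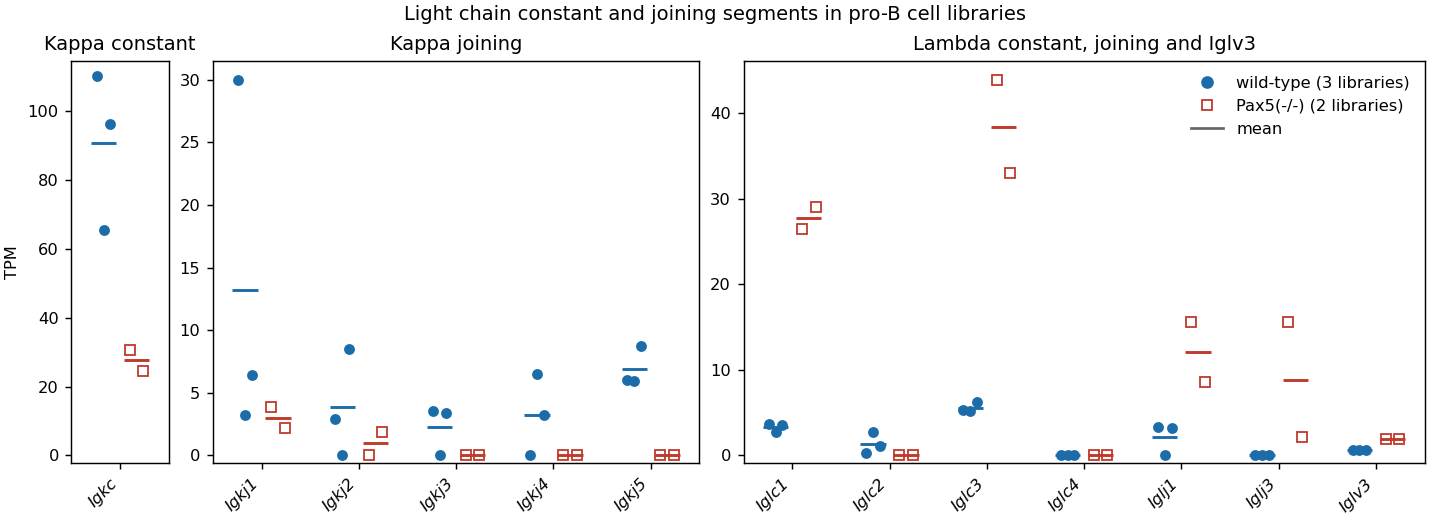
TPM of the constant and joining segments and of Iglv3 in each library, in 3 panels with separate linear y axes; filled circles are the 3 wild-type libraries, open squares the 2 Pax5(-/-) libraries and short lines the means. Igkc and Igkj5 are lower, and Iglc1, Iglc3 and Iglv3 higher, in both Pax5(-/-) libraries than in any wild-type library.

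The share of lambda in the constant segment signal differed by genotype. The 4 constant lambda entries took 7.73%, 14.0% and 10.1% of the summed constant TPM in wild-type libraries and 69.6% and 71.6% in Pax5(-/-) libraries. In wild-type cells Igkc exceeded the lambda sum between 6.13 and 11.9 times, whereas in Pax5(-/-) cells the lambda sum was 2.29 and 2.52 times Igkc. The ratio of variable to constant signal also moved in kappa. Summed variable kappa TPM was 0.44, 0.462 and 0.348 of the Igkc level in wild-type libraries and 3.28 and 4.49 times Igkc in Pax5(-/-) libraries. In lambda the constant sum was between 5.55 and 13.9 times the variable sum in wild-type libraries and 20.3 and 20.8 times in Pax5(-/-) libraries. In Pax5(-/-) cells the kappa signal therefore lay mostly in V segments, and the lambda signal mostly in C segments. TPM is divided by length, so these are comparisons between entries per length.

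Of the 103 variable kappa entries, 20 were above 0 in at least 1 library of both genotypes, 24 in wild-type libraries only, 19 in Pax5(-/-) libraries only, and 40 were at 0 in the 5 libraries. Presence or absence of the low entries rests on 1 to 3 reads and was not tested. Signal was concentrated in a few segments in both genotypes. Igkv1-88 led both: it was at 14.0, 7.20 and 14.2 TPM in wild-type and 34.8 and 32.8 TPM in Pax5(-/-) libraries. It rose 2.87-fold by the means (log2 fold change 1.54 ± 0.29 SE, adjusted p = 0.00528, limma; 0.0803 and 0.0824 without the first and second Pax5(-/-) library). Its share of the variable kappa TPM was 28.9%, 23.8% and 42.3% in wild-type and 34.5% and 29.7% in Pax5(-/-) libraries, which overlap. Of the 10 highest variable kappa entries in each genotype, 4 were common to both.

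The segments that were furthest apart belonged to the Igkv9 and Igkv4 families. Igkv9-124 was at 0.882, 0 and 0.426 TPM in wild-type libraries, against 15.998 and 25.4 TPM in Pax5(-/-) libraries, from 2, 0 and 1 reads against 31 and 89. Igkv9-120 was at 0, 0.352 and 0 TPM in wild-type and 5.87 and 4.64 TPM in Pax5(-/-) libraries. Igkv4-63 was listed at 0 in the 3 wild-type libraries, against 6.21 and 5.45 TPM in Pax5(-/-) libraries, from 12 and 19 reads. All of these passed (adjusted p = 2.81e-04, 4.02e-04 and 7.69e-05, limma), and with wild-type values at or near 0 the size of their fold change depends on the pseudocount and is not given.

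Igkv4-73 was listed at 0 in wild-type libraries and was at 4.58 and 1.38 TPM in Pax5(-/-) libraries (adjusted p = 0.00341, limma). Igkv2-109 rose from 1.39, 1.36 and 0.672 TPM in wild-type libraries to 7.32 and 8.11 TPM in Pax5(-/-) libraries, 6.75-fold by the means (log2 fold change 2.35 ± 0.29 SE, adjusted p = 8.48e-04, limma). Igkv12-89 rose from 1.89, 1.48 and 2.56 TPM to 6.19 and 4.16 TPM (log2 fold change 1.20 ± 0.29 SE, adjusted p = 0.0152, limma; 0.146 and 0.063 without the first and second Pax5(-/-) library). The other 2 that passed with higher values, Igkv9-123 and Igkv2-116, were named after their values were seen, and their means in Pax5(-/-) cells were 1.65 and 1.17 TPM.

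Not all well-expressed V segments moved up. Igkv19-93 was at 4.05, 1.44 and 3.20 TPM in wild-type libraries, against 1.29 and 0.953 TPM in Pax5(-/-) libraries, without overlap but short of the threshold (adjusted p = 0.082, limma; 0.0207 without the second wild-type library). Igkv1-135 was at 1.399, 2.06 and 0.676 TPM in wild-type and 0 and 0.453 TPM in Pax5(-/-) libraries, and it was the 1 variable kappa segment that fell (adjusted p = 0.0431, limma); the call was lost without 4 of the 5 libraries taken out singly, the exception being the third wild-type library (adjusted p from 0.0733 to 0.262 in the 4), and also with no filter (0.067), without the variance trend (0.0512) and under median-ratio and quantile scaling (0.056 and 0.123). Igkv14-111 was at 8.25, 3.87 and 3.81 TPM in wild-type and 7.55 and 11.8 TPM in Pax5(-/-) libraries, which overlap (adjusted p = 0.0977, limma; 0.0111 without the first wild-type library). Igkv14-126 was at 2.87, 2.11 and 0 TPM in wild-type and 1.68 and 0.464 TPM in Pax5(-/-) libraries, and its direction was not stable (adjusted p = 0.878, limma).

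By family, the Igkv9 entries summed to 0.882, 0.352 and 0.426 TPM in wild-type and 23.5 and 32.2 TPM in Pax5(-/-) libraries. The 4 members of this family were each higher in the Pax5(-/-) mean. The Igkv4 family, the largest with 26 entries, summed to 1.54, 1.20 and 2.11 TPM in wild-type and 15.5 and 15.8 TPM in Pax5(-/-) libraries. Within it 19 entries had a higher mean in Pax5(-/-) and 6 in wild-type cells, though Igkv4-63 and Igkv4-73 were the 2 that passed the filter. Several of the 19 held 1 read, in the second Pax5(-/-) library alone, which was the deepest. The Igkv3, Igkv5, Igkv6 and Igkv8 families, with 9, 5, 9 and 9 entries, were at 0 in both Pax5(-/-) libraries, against wild-type mean sums of 0.346, 0.842, 0.476 and 1.44 TPM. Over all variable kappa entries, 32 had a higher mean in Pax5(-/-) and 31 in wild-type cells, and both counts include entries with 1 read in a single library.

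Variable kappa signal was also set against position along the locus. The variable kappa segments lay between 18.4 and 3166 kb from Igkj1, and reads were counted by distance from it. Within 1000 kb lay 39 entries, of which 12 were above 0 in a wild-type library and 0 in a Pax5(-/-) library. The wild-type libraries held 11, 10 and 5 variable kappa reads in this stretch, or 8.27%, 11.8% and 5.21% of their variable kappa reads. The Pax5(-/-) libraries held 0 of 232 and 0 of 452, which allows a share of up to 1.29% and 0.664% (counting error only). The highest single value in the stretch was 2.95 TPM, for Igkv8-27 in the first wild-type library, so the wild-type signal there was low too. The distance limit was chosen after the values were seen, and no test was made.

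Beyond 1000 kb lay 61 entries, and 32 of them were above 0 in a wild-type and 39 in a Pax5(-/-) library. Between 1000 and 1500 kb the summed TPM averaged 0.892 in wild-type and 9.38 in Pax5(-/-) cells, with Igkv4-63 inside that window. From 1500 to 2000 kb, the window of Igkv1-88, it averaged 17.5 and 46.6 TPM. From 2000 to 2500 kb the genotypes overlapped, at 15.9, 7.34 and 7.57 TPM in wild-type and 15.7 and 22.2 TPM in Pax5(-/-) libraries. At greater distance, the window of the Igkv9 segments, the sum averaged 5.36 and 30.8 TPM. The 9 variable kappa segments that rose lay between 1344 and 2780 kb from Igkj1. Of them 3 lay on the plus and 6 on the minus strand, beside 38 and 62 of the 100 with coordinates.

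**Figure D3:**
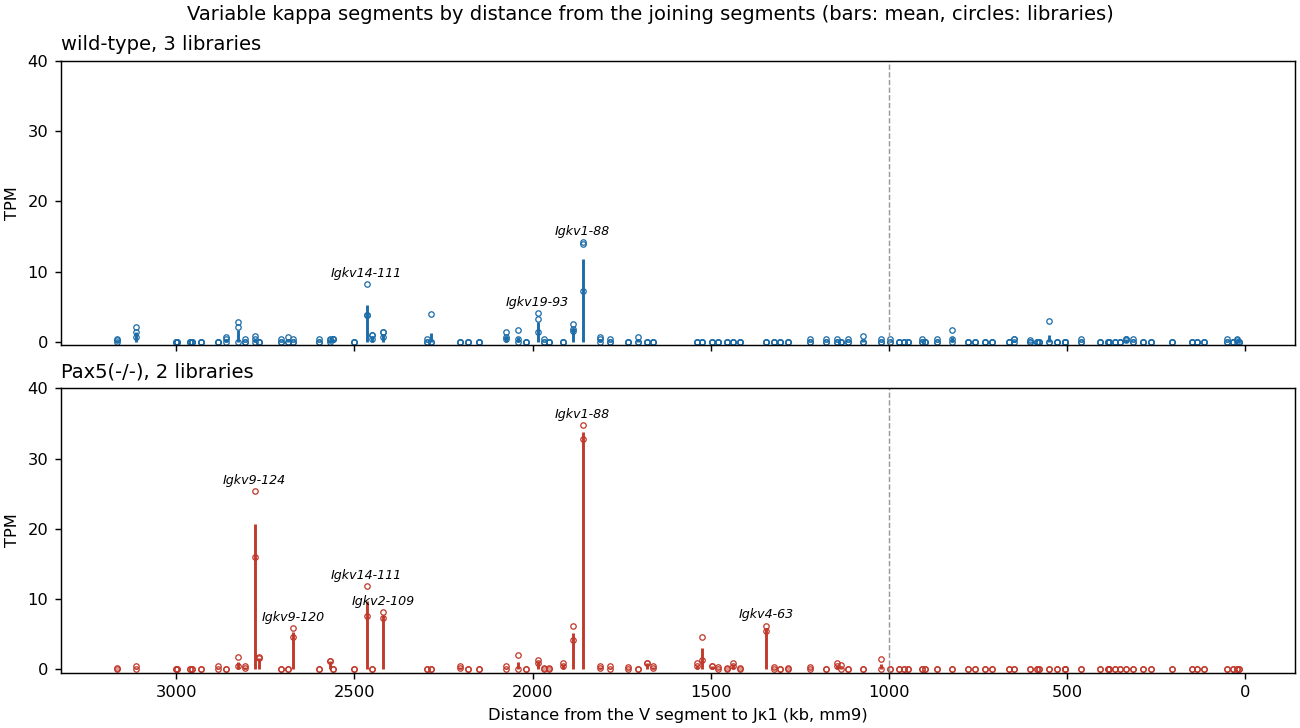
TPM of the 100 variable kappa segments with coordinates against their distance to Jκ1 in kb (x axis, Jκ1 at the right), for wild-type (upper panel) and Pax5(-/-) cells (lower panel) on the same y axis; bars are means and circles libraries. To the right of the dashed line at 1000 kb the lower panel has no signal, and the tallest bars are Igkv1-88 and Igkv9-124 in the lower panel.

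Light chain V promoters carry an octamer bound by the Oct factors and their coactivator. The octamer ATGCAAAT was searched on both strands in the 1000 bases before the V exon. It was present before 72 of the 100 variable kappa segments (72%), in each case reading ATTTGCAT on the coding strand, at a median of 334 bases before the V exon. For comparison, 5.7% of 22380 protein-coding genes held it in the same length before the gene start. It was present before 51 of the 63 variable kappa segments above 0 in a library and 21 of the 37 at 0 in all. Only exact matches were counted, and no entry of the Igkv6 and Igkv8 families had one. The difference between these counts was not tested. It was also found before 8 of the 9 segments that rose, the exception being Igkv1-88, the highest of all. Of the 5 tested variable kappa segments that were lower or did not pass, 5 had it. Windows of 60 bases are printed, with the octamer in capitals, for segments of the families that were furthest apart and for Iglv3. They lie at chr6:67999874-67999933 (plus strand), chr6:67892578-67892637 (minus), chr6:69328526-69328585 (minus), chr6:69148170-69148229 (minus) and chr16:19241822-19241881 (minus) of mm9, in the order of the lines.

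Igkv9-120: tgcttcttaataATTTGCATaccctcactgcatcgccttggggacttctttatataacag
Igkv9-124: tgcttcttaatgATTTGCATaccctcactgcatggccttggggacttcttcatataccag
Igkv4-63: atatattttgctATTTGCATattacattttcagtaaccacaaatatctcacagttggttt
Igkv4-73: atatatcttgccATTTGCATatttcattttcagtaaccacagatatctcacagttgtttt
Iglv3: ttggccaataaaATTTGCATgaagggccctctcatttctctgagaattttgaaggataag

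The first pair and the second pair are each nearly alike, as members of a family. A match describes the letters only, which were present before segments that rose and before segments at 0.

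Because V segments resemble each other, some reads fit several of them and were not counted. The share of 50-base windows that occur once in the genome had a median of 77.9% over the 100 variable kappa segments, with a range of 14.4% to 100%. It was 100% for Igkv1-88, Igkv14-111, Igkv19-93 and Igkc, 68.1% for Igkv9-124, 72.9% for Igkv9-120 and 75.1% for Igkv4-63. Reads from the other windows were not counted, in either genotype. The median was 78.2% over the 63 segments above 0 in a library and 76.1% over the 37 at 0.

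Of the 121 members, 27 passed the filter of a mean above 1 TPM in a genotype and could be tested, 11 through both genotypes, 9 through Pax5(-/-) cells alone and 7 through wild-type cells alone. Those that passed through 1 genotype alone had to differ in their means, so the counts below describe the tested members and support nothing about the class. Of the 27, 14 were higher in Pax5(-/-) cells and 3 lower at an adjusted p below 0.05, against 15.6% of all 12066 genes tested called higher and 21.5% called lower. Of the 14, 8 had passed the filter through Pax5(-/-) cells alone, and of the 3, 2 through wild-type cells alone. Among the 11 that passed through both genotypes, 6 were higher and 1 lower. By the study's stricter threshold, which adds a change over 3-fold and a mean above 5 TPM, 8 were higher and 2 lower, against 2.83% and 3.34% of all genes. By class, 9 variable kappa segments were higher and 1 lower of 14 tested. Of the 6 joining and constant kappa segments 2 were lower and the others did not pass, and of 7 lambda segments tested 5 were higher and the others did not pass (limma). The genotypes did not overlap for 14 members with higher and 5 with lower Pax5(-/-) values, against 26.1% and 37.4% of all genes. The median log2 fold change was 1.08 over the 27, a value that depends on which members the filter let through, and 1.20 over the 11 passed through both, beside -0.12 over all genes.

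**Figure D4:**
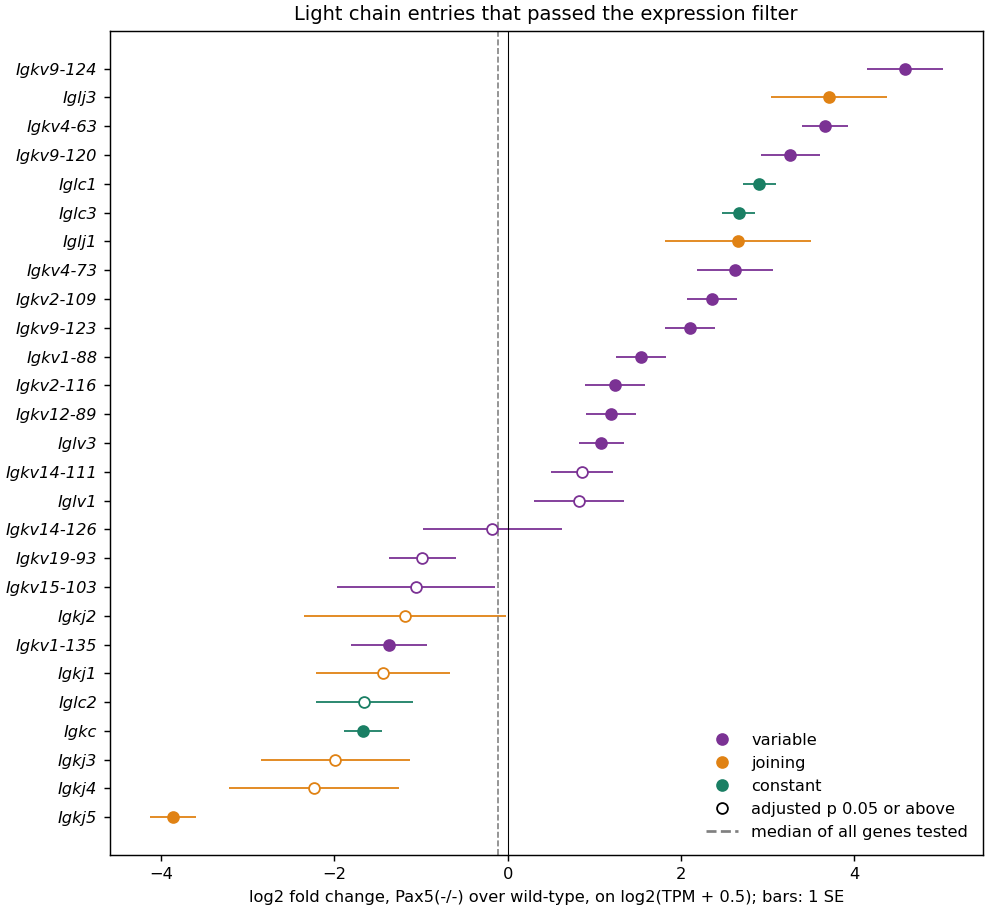
Log2 fold change of Pax5(-/-) over wild-type cells on log2(TPM + 0.5), with 1 SE, for the 27 members that passed the filter (y axis), coloured by segment class; open symbols did not reach an adjusted p of 0.05 and the dashed line is the median of all genes tested. Igkv9-124 lies furthest to the right and Igkj5 furthest to the left, where the joining and constant kappa segments sit together with Iglc2, Igkv1-135, Igkv15-103, Igkv19-93 and Igkv14-126.

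Genes that act on these loci moved unevenly. Of 22 factors known to act at light chain enhancers or promoters, 11 were lower in Pax5(-/-) cells, 4 higher and 7 did not pass (median log2 fold change -0.23). Over all 12066 genes tested, 21.5% were called lower and 15.6% higher, and these shares stand beside the lists below as well. Irf4, which acts at the kappa and lambda enhancers, was at 104, 102 and 139 TPM in wild-type and 19.5 and 26.2 TPM in Pax5(-/-) libraries and fell (adjusted p = 1.13e-04, limma). Its partner Spi1, the gene for PU.1, was at 207, 176 and 141 TPM in wild-type and 349 and 347 TPM in Pax5(-/-) libraries and rose (adjusted p = 0.00261, limma). Spib, from the same list, fell from 574, 544 and 483 TPM to 140 and 161 TPM (adjusted p = 4.01e-05, limma). Irf8 fell from 231, 241 and 240 TPM to 40.4 and 78.4 TPM (adjusted p = 6.88e-04, limma). Ikzf3, the gene for Aiolos, fell from 22.5, 11.8 and 31.7 TPM to 0.614 and 0.42 TPM (adjusted p = 1.89e-04, limma). Pou2af1, the octamer coactivator, fell from 1054, 981 and 1064 TPM to 534 and 498 TPM (adjusted p = 2.76e-04, limma). The octamer factor genes went opposite ways. Pou2f2 rose from 47.9, 44.5 and 46.5 TPM to 72.2 and 60.3 TPM (adjusted p = 0.0149, limma). Pou2f1 fell from 21.6, 22.7 and 23.7 TPM to 15.7 and 13.2 TPM (adjusted p = 0.0132, limma).

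The recombination genes stayed expressed. Of 12, 6 were lower, 1 was higher and 5 did not pass. Rag1 was at 267, 338 and 363 TPM in wild-type and 236 and 211 TPM in Pax5(-/-) libraries (adjusted p = 0.0264, limma), and Rag2 fell further, from 57.4, 73.2 and 68.8 TPM to 22.5 and 21.7 TPM (adjusted p = 1.80e-04, limma). The surrogate light chain pairs with the heavy chain before a light chain is made. Of the 4 genes listed under it here (Igll1, Vpreb1, Vpreb2 and Vpreb3), 3 were lower. Igll1 fell from 2671, 2974 and 2723 TPM to 642 and 572 TPM (adjusted p = 1.46e-05, limma). Vpreb2 was at 328, 301 and 232 TPM and at 279 and 277 TPM (adjusted p = 0.884, limma).

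Markers of other cell types moved in both directions, and their part in the light chain results was not tested. Of 9 pre-B and mature B cell markers, 6 were tested, 4 lower and 1 higher; their summed level was 65.2 to 123 TPM in wild-type and 57.3 to 57.4 TPM in Pax5(-/-) libraries, with Cr2 and Fcer2a below 1 TPM and Bcl2a1a at 0 throughout. Of 7 plasma cell markers found, 2 were higher and 2 lower, with sums of 1681 to 2017 and 1902 to 2084 TPM. Among these Igj, the J chain gene, was at 0.542, 0.768 and 0.175 TPM in wild-type and 545 and 695 TPM in Pax5(-/-) libraries (adjusted p = 2.50e-06, limma), while Prdm1 and Tnfrsf17 stayed below 1 TPM in the 5 libraries. Of 8 T cell markers 3 were tested, 2 higher (Cd4 and Lck) and 1 lower (Trac), with sums of 57.6 to 75.6 and 200.1 to 205 TPM; Cd3d, Cd3e and Cd3g were below 1 TPM throughout. Of 8 myeloid and dendritic markers 1 was higher and 2 lower, with sums of 122 to 234 and 177 to 238 TPM.

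In the Pax5(+/+) Meox2-cre libraries, given at 3 weeks of age in the study, Igkc was again the highest member, at 240, 300 and 264 TPM (268 ± 30.04, SD, n = 3). These tables were made with another aligner and annotation, so their levels were not compared with those above. Igkj1 was at 21.9, 33.4 and 42.7 TPM and Igkj5 at 28.4, 13.7 and 16.5 TPM, which overlap, and Igkj2 followed at 8.31, 5.37 and 18.9 TPM. Igkj3 and Igkj4 were each at 0, 0 and 3.05 TPM. The joining segments with most signal were thus Igkj1, Igkj5 and Igkj2.

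Lambda was low in these libraries. Iglc1 was at 6.30, 11.7 and 5.87 TPM, Iglc3 at 4.48, 8.18 and 8.46 TPM and Iglc2 at 0.973, 4.15 and 0.568 TPM, while Iglc4 was at 0. The constant lambda entries took 4.67%, 7.43% and 5.34% of the constant TPM. Of the joining lambda entries, Iglj1 was at 0, 3.04 and 0 TPM and the other 4 were at 0. Iglv1 was at 2.44, 2.36 and 0.592 TPM, Iglv3 at 0.625, 0.606 and 0.912 TPM, and Iglv2 at 0, 0.947 and 0 TPM.

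Summed variable kappa signal was 56.9, 69.7 and 56.9 TPM, or 0.237, 0.233 and 0.215 of the Igkc level. Of 160 variable kappa entries 84 were above 0 in a library, 16 above 1 TPM and 2 above 5 TPM. Igkv1-88 again led, at 16.1, 21.7 and 23.04 TPM, or 28.4%, 31.1% and 40.5% of the class. Igkv19-93 came next at 3.94, 5.41 and 5.42 TPM, and its range does not reach that of Igkv1-88. Igkv12-89 (2.89 ± 0.75 TPM, SD, n = 3), Igkv9-124 (2.87 ± 0.35), Igkv1-135 (2.66 ± 0.56) and Igkv14-111 (1.90 ± 0.63) followed and lay within each other's spread or close to it. Igkv15-103, Igkv12-46 and Igkv1-117 had means of 1.36, 1.23 and 1.06 TPM. Of the 57 entries found in the mm10 tables alone, 11 were above 0, none over 1.37 TPM. The entries within 1000 kb of Igkj1 in mm9 took 14.4%, 22.2% and 7.27% of the variable kappa TPM here, and 26 of the 39 were above 0 in a library.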

How the data were processed

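Poly(A) RNA of 8 pro-B libraries was analysed from the tables of TPM that the authors deposited. Per the study, ribosomal reads were removed, and reads were aligned to mm9 with TopHat 1.4.1a or to mm10 with STAR 2.4.2a. Reads were counted per gene with featureCounts 1.5.0, which by default drops reads with several matches and reads that overlap several genes. A read that crosses from a joining segment into a V or C segment would then not be counted. The authors kept immunoglobulin genes in the TPM total. Count tables were not used here, so no count model was fitted.

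For entries with a mean above 1 TPM in a genotype, log2(TPM + 0.5) was fitted by genotype in limma 3.58.1 (R 4.3.3) with a variance trend. The Benjamini-Hochberg adjustment ran over 12066 genes. The labels do not tie libraries to separate animals, so p-values measure the spread between libraries, which may be technical. Reads per mm9 member were recovered where TPM times length gave whole multiples (91.5% to 96.4% of values under 10 reads within 0.05). Lengths were fitted for Igkv10-96 and for the lambda V and C entries with signal. A length of 38 bases was assumed for Iglj1 and Iglj3. No such unit was found for the mm10 tables, whose depth in reads is unknown. Intervals and floors cover counting error only.

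Named members were the constant and joining entries, the lambda V entries above 1 TPM, the 10 highest kappa V entries and up to 5 with the largest change in each direction, and in mm10 the 10 highest V entries. Members and lists were chosen with earlier results of these data known. Sequences come from NCBIM37 with GENCODE M1. Alternatives covered pseudocount, filter, variance model, scaling, fold rule and single libraries left out. Some items are not reported here.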

Additional observations from a re-analysis of the deposited data

How the results depend on the processing

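No paired analysis was possible because wild-type and Pax5(-/-) libraries share no replicate number in their labels. Over 25 fold changes and their 357 alternative values, 326 kept direction and side of the threshold, 20 fell short of it, 7 passed it and 4 reversed. The 4 are of Igkv14-126, whose log2 fold change of -0.18 became 0.20 at pseudocount 0.1, and 0.34, 0.16 and 0.41 without wild-type library 1, wild-type library 2 or Pax5(-/-) library 2, in a range from -1.03 to 0.41 over the single libraries left out. With no filter, 16 kappa entries were higher and 5 lower, against 9 and 3. Lambda entries called lower went from 0 to 1 at pseudocount 0.1, with robust variances and without wild-type library 1; the 1 is Iglc2. Entries past the study's threshold were 5 higher and 1 lower when tested against 3-fold, against 8 and 2, and 1 lower under median-ratio and quantile scaling. Leaving out 1 library gave 6 to 10 higher and 2 to 4 lower kappa entries, 3 to 5 higher and 0 to 1 lower lambda entries, and 5 to 9 higher and 1 to 2 lower past the study's threshold; a lone Pax5(-/-) library was assumed to vary like the others. Scaling by median ratios moved the median of all genes from -0.12 to 0.00 on the log2 scale and reversed no named member. Without the highest entry of its class, the log2 ratio of the joining kappa sum went from -2.89 to -4.09, and the Meox2-cre means were 40.9 TPM for V kappa, 32.4 for J kappa, 1.03 for V lambda and 8.93 for C lambda, as fewer entries are summed; for J lambda the wild-type sum was then 0 and gave no ratio. Depth limits the joining segments most, at 0 to 9 reads a library.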
